A study of Mus musculus with 27 samples.

Results

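Imprinted genes are expressed mainly from the copy inherited from 1 parent. The set described here holds 36 protein-coding genes listed as imprinted in the mouse, of which 20 are known mainly as paternally expressed, 14 as maternally expressed and 2, Grb10 and Gnas, as either, depending on promoter or tissue. They were matched by gene identifier through the reference annotation, and 35 of the 36 were found among 38123 genes, Snrpn being named only. RNA came from mouse embryonic stem cells in which the part of Dicer that codes for its RNase III domain can be deleted with 4-hydroxytamoxifen at 800 nM. The cells are the XY lines DTCM23/49 on gelatin with serum and LIF, and Dicer-deficient colonies were selected and expanded after treatment. The day 0 groups were taken before induction, and the later groups 4, 8, 10 or 12 days after it. The treatment protocol names ethanol-treated controls, but by their labels no library of a later day is such a control, so time in culture and colony selection cannot be told apart from Dicer loss. Each of the 9 groups had 3 libraries: whole cells on 5 days, and nucleus and cytoplasm at days 0 and 12. Levels are in FPKM, sequenced fragments scaled to the length of the transcript and to the mapped fragments of the library, which adds up the RNA of both parental copies. The driver of the recombinase is not given in the sources used here.

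As background, imprints are DNA methylation marks set in the germline at control regions, and they are kept through cell division by maintenance methylation and by zinc finger proteins such as ZFP57. Many imprinted genes act on growth: paternally expressed genes such as Igf2 often promote growth of the embryo and placenta, and maternally expressed genes such as Igf2r and Phlda2 often restrain it. Several maternally expressed genes of the set are known to be imprinted mainly in the placenta, so the parental side given here is background and was not read from these data. Dicer makes mature microRNAs. In mouse embryonic stem cells, members of the miR-290 family are among the most abundant of them, and several share a seed with the miR-302 family.

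The mature sequences of 4 members of those families are shown because their common seed, bases 2 to 8 in capitals, is the one looked for in the imprinted transcripts. They are from RefSeq (GRCm38.p6), 5′ to 3′.
miR-291a-3p: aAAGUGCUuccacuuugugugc
miR-294-3p: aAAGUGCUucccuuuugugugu
miR-295-3p: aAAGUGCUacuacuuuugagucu
miR-302b-3p: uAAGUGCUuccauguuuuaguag
Matches in the longest annotated 3′ UTR of each gene (GENCODE M21, GRCm38) were the 8-mer AGCACTTA, read on the transcript strand, or a 7-mer inside it, which is AGCACTT at its start and GCACTTA at its end. A match of either kind was present in 11 of 35 imprinted genes (31.4%) and in 17.9% of 20390 protein-coding genes, with a median 3′ UTR length of 1304 bases in the imprinted genes and 975 in all. The 8-mer was present in 1 of 35, Zim1, against 3.02% of all. Of the 14 imprinted genes that were higher in whole cells at day 10, 6 held a match, and of the 4 that were lower, 1 did, Grb10. Of the 7 with the largest called differences at day 10 on the log2(FPKM + 0.5) scale, Osbpl5 and Ndn held a match, and Plagl1, Ddc, Dcn, Igf2 and Phlda2 held none. The matched bases are in capitals in the windows of Cd81, Ndn, Nnat, Osbpl5, Peg10 and Grb10. These genes and Impact are those called in whole cells at day 10 that held a match. A match is a description of letters and no evidence of a site in use.
Cd81, chr7:143067830-143067859, plus strand: atgccttcaatGCACTTAttctttctaacg
Ndn, chr7:62349850-62349879, plus strand: tctcagtgtagGCACTTAgcaccctttaca
Nnat, chr2:157561740-157561769, plus strand: ctcgtcagaggAGCACTTgccaaggtcagt
Osbpl5, chr7:143689748-143689777, minus strand: cctaggcacccAGCACTTtacaccggcctg
Peg10, chr6:4759051-4759080, plus strand: tcttttattttAGCACTTccaacaaaaatg
Grb10, chr11:11930795-11930824, minus strand: ttcccctttctGCACTTAaatacctgacag

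The hexamer TGCCGC, which ZFP57 is known to bind when it is methylated, was searched on both strands in RefSeq promoter windows of 300 bases. Windows were found for 30 of the 36 genes. It was present in 11 of their 50 windows (22.0%), which belong to 10 genes, and in 11.6% of 32851 windows of all genes. The windows of the imprinted genes held a median of 15 CpG dinucleotides and those of all genes 7. The promoters of the gene that rose most and of the gene that fell most in whole cells at day 10, both on the log2(FPKM + 0.5) scale, are shown, with the hexamer, or its complement GCGGCA, in capitals where present.
Plagl1 promoter, chr10:13090582-13090881, plus strand: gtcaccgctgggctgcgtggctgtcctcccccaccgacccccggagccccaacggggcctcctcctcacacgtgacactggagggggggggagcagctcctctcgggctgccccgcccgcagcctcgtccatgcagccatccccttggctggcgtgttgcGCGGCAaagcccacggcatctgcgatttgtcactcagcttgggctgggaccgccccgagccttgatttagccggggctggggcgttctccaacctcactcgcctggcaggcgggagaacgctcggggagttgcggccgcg
Phlda2 promoter, chr7:143502475-143502774, minus strand: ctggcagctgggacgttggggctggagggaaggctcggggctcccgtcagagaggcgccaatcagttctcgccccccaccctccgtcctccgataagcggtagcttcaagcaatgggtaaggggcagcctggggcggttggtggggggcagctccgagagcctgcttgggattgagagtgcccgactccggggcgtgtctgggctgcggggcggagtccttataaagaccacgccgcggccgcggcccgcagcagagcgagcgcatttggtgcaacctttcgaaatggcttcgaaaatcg
Plagl1 held 1 hexamer in this window and Phlda2 held 0, with 26 CpG dinucleotides in each. These windows are the starts that RefSeq gives, which need not be the imprinted control region of the locus.

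The 36 genes lie on 11 chromosomes, with 18 on chromosome 7 and 6 on chromosome 6. Sgce and Peg10 start 99 bases apart on opposite strands, and Peg3 and Usp29 start 147 bases apart in the same way. A gene on the other strand overlaps 14 of the 36, such as Airn over Igf2r, Blcap over Nnat, Copg2 over Mest and Nespas over Gnas. The libraries are directional, but the strand setting of the counting is not given in the sources used here, so reads of these pairs may not be separated. In whole cells at day 0, 12 of 35 genes stood at 10 FPKM or more, 14 from 1 to under 10 and 9 under 1. Phlda2 had the highest mean, 135 ± 2.00 FPKM (SD, n = 3), followed by Cd81 (77.4 ± 3.72), the histone chaperone gene Nap1l4 (66.1 ± 3.19), Peg10 (57.2 ± 10.6) and Mest (55.6 ± 8.43). The libraries of the last 3 overlap, and their order is not beyond that spread. Asb4, Kcnq1 and Rasgrf1 were under 0.5 FPKM in every group, and Rasgrf1 was listed at 0 in most libraries.

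Libraries correlated within groups at r = 0.908 to 0.993. Nucleus day 0 replicate 3 and nucleus day 12 replicate 1 stood farthest from their groups. Dicer1 was 16.3 ± 1.47 FPKM in whole cells at day 0 and 1.83 ± 0.124 at day 10, but 14.6 ± 1.77 in the whole cell libraries labelled day 12, which goes against that label. In the cytoplasm it went from 22.5 ± 1.18 to 3.06 ± 0.366 FPKM at day 12, and in the nucleus from 13.3 ± 4.75 to 4.20 ± 1.11. The summed level of 8 stem cell markers was 1570 to 1699 FPKM at day 0 and 1444 to 1523 at day 10. In bulk samples, more RNA per cell and more cells of a type cannot be told apart.

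By day 10, 14 of 31 tested imprinted genes were higher in whole cells than at day 0 and 4 were lower (limma on log2(FPKM + 0.5), Benjamini-Hochberg adjusted p under 0.05 over 15991 genes). Of all tested genes, 27.7% were higher and 16% lower. At day 8, 15 were higher and 2 lower, against 20.2% and 9.62% of all genes. The paternally expressed genes were 10 higher and 1 lower of 18 at day 10 (11 and 1 at day 8), with a median log2 difference of 0.62 against 0.09 over all genes. The maternally expressed genes were 3 higher and 2 lower of 11 (3 and 1 at day 8), with a median of 0.12. All comparisons of whole cells with day 0 share the same 3 day 0 libraries. Over the 5 days, 25 of 31 imprinted genes differed by the limma F-test, against 54.2% of all genes.

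The transcription factor gene Plagl1 (chromosome 10, 13060504 to 13131694 on the plus strand, GRCm38), whose zinc finger protein is known to act on other imprinted genes, showed the largest rise at day 10 on the log2(FPKM + 0.5) scale, while by the ratio of mean FPKM the low gene Dcn rose more, 10.5 against 4.66. Its level was 2.07, 1.73 and 1.89 FPKM in the day 0 libraries, 7.32, 5.67 and 8.03 at day 8 and 8.32, 8.58 and 9.63 at day 10. Every library of days 8 and 10 lay above every one of day 0. The log2 difference from day 0 was 1.64 ± 0.13 (SE, adjusted p = 2.04e-06) at day 8 and 1.96 ± 0.13 (SE, adjusted p = 1.81e-07) at day 10. Igf2, the fetal growth factor gene (chromosome 7, 142650766 to 142666816 on the minus strand), held 3.14, 4.88 and 4.09 FPKM at day 0, 10.2, 11.02 and 10.1 at day 8 and 11.6, 11.1 and 11.7 at day 10. It rose by 1.29 ± 0.14 (SE, adjusted p = 2.13e-05) and 1.42 ± 0.14 (SE, adjusted p = 4.45e-06) on the same scale, with no overlap of the libraries. Ddc, which codes for the decarboxylase that makes dopamine and serotonin, went from 3.33, 2.75 and 2.50 FPKM at day 0 to 7.76, 8.88 and 7.88 at day 8 and 13.1, 12.3 and 11.8 at day 10. The 3 groups of Ddc are apart, each later day above the earlier one, with differences from day 0 of 1.37 ± 0.14 (SE, adjusted p = 1.11e-05) and 1.94 ± 0.14 (SE, adjusted p = 2.59e-07). Dlk1, a transmembrane protein gene of the Notch ligand family, was lower in level, at 1.20, 1.42 and 1.295 FPKM at day 0, 2.18, 2.14 and 2.16 at day 8 and 1.89, 2.04 and 1.52 at day 10. Its difference passed at day 8, 0.56 ± 0.15 (SE, adjusted p = 0.0137), and was 0.36 ± 0.15 (SE, adjusted p = 0.0752) at day 10. That call was lost when replicate 1 of day 0 was left out (adjusted p = 0.0545). The sum of 11 endoderm markers, a cell type that expresses these growth genes, was 19.1 to 21.8 FPKM at day 0 and 29.9 to 48.8 at day 4. It was 29.5 to 44.4 at day 8 and 45.7 to 49.4 at day 10, with Ttr at 0 in every library of days 4, 8 and 10. Of 7 tested endoderm markers, 5 were higher than day 0 at day 4 and 3 at day 10, with 0 lower. Of all genes, 4.88% and 27.7% were higher on these days. From day 4 to day 10, 2 endoderm markers were higher and 3 lower, against 23.3% and 14.2% of all genes. The part of this sum in the values of these genes was not tested.

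In the Prader-Willi and Angelman cluster on chromosome 7, the members moved in different directions. Ndn (chromosome 7, 62346569 to 62350262 on the plus strand), a MAGE family gene known from postmitotic neurons, held 10.7, 11.6 and 11.2 FPKM at day 0, 25.04, 23.9 and 18.4 at day 8 and 28.5, 26.7 and 26.03 at day 10, with all later libraries above those of day 0. It rose by 0.96 ± 0.10 (SE, adjusted p = 1.50e-05) and 1.24 ± 0.10 (SE, adjusted p = 8.10e-07). Peg12, which codes for a GSK3-binding protein of the Frat family, stood at 1.58, 1.23 and 1.68 FPKM at day 0 and rose to 3.44, 3.75 and 3.23 at day 8 and 3.40, 3.68 and 3.08 at day 10 (1.00 and 0.96, adjusted p = 1.10e-04 and 7.36e-05). In both fractions Peg12 overlapped between days 0 and 12. It was 3.58 ± 0.716 and 3.61 ± 0.640 FPKM in the cytoplasm and 2.29 ± 0.625 and 2.58 ± 0.835 in the nucleus. Magel2, another MAGE family gene, was the only paternally expressed gene of the set called lower against day 0 in whole cells. It was under 1 FPKM in every group, at 0.810 ± 0.130 FPKM at day 0 and 0.126 ± 0.109 at day 10, a difference of -1.08 ± 0.24 (SE, adjusted p = 0.00298). Its call at day 8 (-0.74, adjusted p = 0.0348) ended without any 1 of the 6 libraries (0.0559 to 0.107). The ubiquitin ligase genes Ube3a and Mkrn3 did not pass on either day, with 9.27 ± 0.553 and 10.4 ± 0.258 FPKM at days 0 and 10 for Ube3a and 1.82 ± 0.217 and 2.39 ± 0.417 for Mkrn3. The sum of 7 neural markers was 52.4 to 65.0 FPKM at day 0, 89.5 to 94.5 at day 8 and 73.6 to 75.5 at day 10, none at 0. Of 6 tested neural markers, 3 were higher and 0 lower at day 8, against 20.2% and 9.62% of all genes. At day 10, 2 were higher and 1 lower, against 27.7% and 16%. The part of this sum in the Ndn and Peg12 values was not tested.

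At the Sgce-Peg10 locus on chromosome 6, both paternally expressed genes that share the promoter region rose. Of the maternally expressed neighbours in the set, Ppp1r9a did not pass and Asb4 was too low to be tested. Pon2, an imprinted neighbour outside the set, rose, with its values given further below. Sgce, the epsilon-sarcoglycan gene, was at 3.34, 3.04 and 3.13 FPKM at day 0, 3.94, 4.30 and 5.35 at day 4, 5.08, 6.15 and 5.58 at day 8 and 5.32, 5.17 and 5.12 at day 10. All later libraries lay above those of day 0, and the differences were 0.73 ± 0.11 (SE, adjusted p = 3.05e-04) at day 8 and 0.64 ± 0.11 (SE, adjusted p = 4.92e-04) at day 10. Peg10, a gene derived from a retrotransposon and needed for the placenta, was at 45.1, 64.8 and 61.8 FPKM at day 0, 115, 112 and 133 at day 8 and 81.6, 93.9 and 91.4 at day 10. The groups did not overlap, and Peg10 rose by 1.08 ± 0.22 (SE, adjusted p = 0.00252) and 0.65 ± 0.22 (SE, adjusted p = 0.0307). Its call at day 10 was lost when day 0 replicate 1 (adjusted p = 0.134), day 10 replicate 2 (0.0858) or day 10 replicate 3 (0.0768) was left out. Ppp1r9a, which codes for the actin-binding phosphatase regulator neurabin, stood at 1.48 ± 0.0789 FPKM at day 0 and 1.33 ± 0.0990 at day 10, and Asb4 at 0.0517 ± 0.0271 and 0.0791 ± 0.0370 was not tested.

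Of the other paternally expressed genes, Slc38a4, Impact and Nnat were higher at day 10 and Mest at day 8 alone. Slc38a4, an amino acid transporter gene, did not pass at day 8 (adjusted p = 0.127) and then rose, from 42.9, 50.7 and 45.3 FPKM at day 0 to 77.1, 76.03 and 78.3 at day 10, 0.73 ± 0.08 (SE, adjusted p = 1.36e-05). Its day 8 libraries held 54.3, 50.3 and 52.7 FPKM, of which the lowest lies below the highest of day 0, while day 10 lies above all of them. Impact, a gene on chromosome 18 whose protein restrains the translation-repressing kinase GCN2, went from 37.9, 39.2 and 37.8 FPKM at day 0 to 48.2, 48.8 and 50.97 at day 8 and 60.6, 61.6 and 61.1 at day 10. The 3 groups of Impact did not overlap, with differences of 0.36 (adjusted p = 0.02) and 0.67 ± 0.10 (SE, adjusted p = 2.06e-04). Leaving out day 0 replicate 1 (0.0605), day 0 replicate 3 (0.0581) or day 8 replicate 3 (0.0679) ended the Impact call at day 8. Between days 0 and 12 Impact did not pass in either fraction. It was 44.5 ± 3.56 and 54.9 ± 2.95 FPKM in the cytoplasm and 38.7 ± 9.43 and 50.9 ± 5.57 in the nucleus. Nnat, a small membrane protein gene, rose from 34.7, 44.5 and 36.03 FPKM to 65.2, 61.8 and 62.98 at day 8 and 59.8, 57.5 and 57.03 at day 10, 0.72 ± 0.13 (SE, adjusted p = 0.00122) and 0.60 ± 0.13 (SE, adjusted p = 0.00272). Mest, a hydrolase-fold protein gene with miR-335 in an intron, was at 46.6, 63.4 and 56.9 FPKM at day 0, 75.1, 83.6 and 77.3 at day 8 and 63.2, 61.6 and 68.5 at day 10 (0.51 and 0.22, adjusted p = 0.00467 and 0.139). All Nnat libraries of both later days lie above day 0, and those of Mest do at day 8 but overlap it at day 10. Blcap, which overlaps Nnat on the other strand, was 6.47 ± 0.401 FPKM at day 0 and 16.1 ± 0.615 at day 10, and its part in the Nnat values was not tested. The zinc finger gene Peg3 (30.5 ± 2.66 and 41.1 ± 3.55 FPKM at days 0 and 10), Zdbf2 (7.90 ± 0.365 and 7.24 ± 0.281), Usp29 (0.728 ± 0.0793 and 0.552 ± 0.0749) and Nap1l5 (0.579 ± 0.102 and 0.351 ± 0.137) did not pass. Rasgrf1 was not tested.

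The maternally expressed genes split. Cd81 (chromosome 7, 143052739 to 143067934 on the plus strand), a tetraspanin gene, rose from 73.1, 80.01 and 79.03 FPKM at day 0 to 127, 138 and 122 at day 8 and 162, 167 and 160.1 at day 10. Each of these groups lies above the one before, with differences of 0.74 ± 0.08 (SE, adjusted p = 1.88e-05) and 1.07 ± 0.08 (SE, adjusted p = 3.67e-07). Osbpl5, a lipid transfer protein gene, went from 0.683, 0.699 and 0.815 FPKM to 1.75, 1.92 and 2.36 and 2.51, 2.98 and 2.83, 1.02 ± 0.16 (SE, adjusted p = 3.80e-04) and 1.41 ± 0.16 (SE, adjusted p = 1.41e-05), each group above the one of the earlier day. Between days 0 and 12 Osbpl5 did not pass in either fraction. It was 0.992 ± 0.135 and 1.80 ± 0.132 FPKM in the cytoplasm and 2.79 ± 1.06 and 2.70 ± 0.564 in the nucleus. Dcn, the gene of the collagen-binding proteoglycan decorin, rose from near 0, at 0.125, 0.148 and 0.184 FPKM, to 2.51, 2.32 and 2.05 at day 8 and 1.75, 1.23 and 1.80 at day 10, 2.09 ± 0.23 (SE, adjusted p = 1.98e-05) and 1.67 ± 0.23 (SE, adjusted p = 6.25e-05). In the fractions, Dcn was under 0.5 FPKM in every group and was not tested. Its mean was 0.344 FPKM at day 0 and 0.223 at day 12 in the nucleus, and 0.0409 and 0.435 in the cytoplasm. Decorin is a fibroblast product, and the summed level of 9 fibroblast markers without Dcn was 128 to 155 FPKM at day 0, 574 to 583 at day 8 and 834 to 856 at day 10, with Lum at 0 in every day 0 library. At day 10, 4 of the 6 tested fibroblast markers were higher and 1 lower, against 27.7% and 16% of all genes. In the nucleus at day 12, 2 of 8 tested were higher and 5 lower, against 15.1% and 21.6%. In the cytoplasm 3 were higher and 1 lower, against 16% and 16.6%. The part of these markers in the Dcn result was not tested.

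Phlda2 and Slc22a18, neighbours in the Kcnq1 domain on chromosome 7, fell. Phlda2 (chromosome 7, 143501545 to 143503150 on the minus strand), whose pleckstrin homology protein restrains placental growth, held 136, 136 and 132 FPKM at day 0, 136, 131 and 232 at day 4, 111, 105 and 99.3 at day 8 and 59.3, 56.7 and 55.2 at day 10. Day 10 lies below every library of the other days, with 1 high library at day 4. The difference from day 0 was -0.36 ± 0.16 (SE, adjusted p = 0.119) at day 8 and -1.23 ± 0.16 (SE, adjusted p = 4.64e-05) at day 10. Slc22a18, a transporter gene, stood at 2.84, 1.85 and 2.60 FPKM at day 0, 0.627, 0.985 and 1.20 at day 8 and 1.47, 0.747 and 1.64 at day 10, below day 0 in every library. Its differences were -1.03 ± 0.24 (SE, adjusted p = 0.00588) and -0.74 ± 0.24 (SE, adjusted p = 0.0253), the second lost without whole cell day 0 replicate 1 (0.095), day 0 replicate 3 (0.0749) or day 10 replicate 2 (0.121). Ascl2, a trophoblast transcription factor gene of the same region, was 3.83 ± 0.644 FPKM at day 0 and 3.64 ± 0.735 at day 10 and did not pass, -0.07 ± 0.15 (SE, adjusted p = 0.735). Nap1l4 was 66.1 ± 3.19 and 71.9 ± 0.434 FPKM, Tssc4 8.31 ± 1.12 and 9.96 ± 0.710, and neither passed at day 8 or 10. The zinc finger gene Zim1 next to Peg3 (0.138 ± 0.0299 and 0.297 ± 0.112 FPKM) and the potassium channel gene Kcnq1 were too low to be tested in whole cells. The sum of 9 trophoblast markers without Ascl2 was 146 to 195 FPKM at day 0 and 516 to 551 at day 10. Most of it was the keratin genes Krt8 (73.1 ± 15.2 and 262 ± 14.4 FPKM) and Krt18 (75.5 ± 10.8 and 247 ± 8.15). Of 8 tested trophoblast markers, 5 were higher and 1 lower at day 10, against 27.7% and 16% of all genes. The part of this sum in the values of Phlda2 and Peg10 was not tested.

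Of the growth pathway genes of either parental side, Grb10, whose adaptor protein restrains insulin and IGF receptors, fell. Its libraries held 8.81, 11.2 and 10.8 FPKM at day 0, 8.95, 8.97 and 9.95 at day 8 and 4.83, 5.18 and 5.25 at day 10. Day 10 lies below all libraries of days 0 and 8, a difference of -0.94 ± 0.12 (SE, adjusted p = 2.68e-05), and day 8 overlaps day 0, -0.13 ± 0.12 (SE, adjusted p = 0.443). Ddc, its neighbour on chromosome 11, moved the other way. Gnas, the gene of the stimulatory G protein alpha subunit, went from 22.7, 22.5 and 24.1 FPKM at day 0 to 31.5, 35.3 and 32.9 at day 8 and 29.9, 29.8 and 29.7 at day 10. The differences were small, 0.51 and 0.36 (adjusted p = 0.00695 and 0.0315). Median-of-ratios scaling ended both Gnas calls (0.0603 and 0.228), and the day 10 call also ended without 5 of its 6 libraries in turn, all but day 0 replicate 3 (0.0697 to 0.0836). Igf2r, whose receptor takes up IGF2 for breakdown, was 6.04 ± 0.657 FPKM at day 0 and 5.89 ± 0.296 at day 10, a difference of -0.03 ± 0.35 (SE, adjusted p = 0.96).

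**Figure D1:**
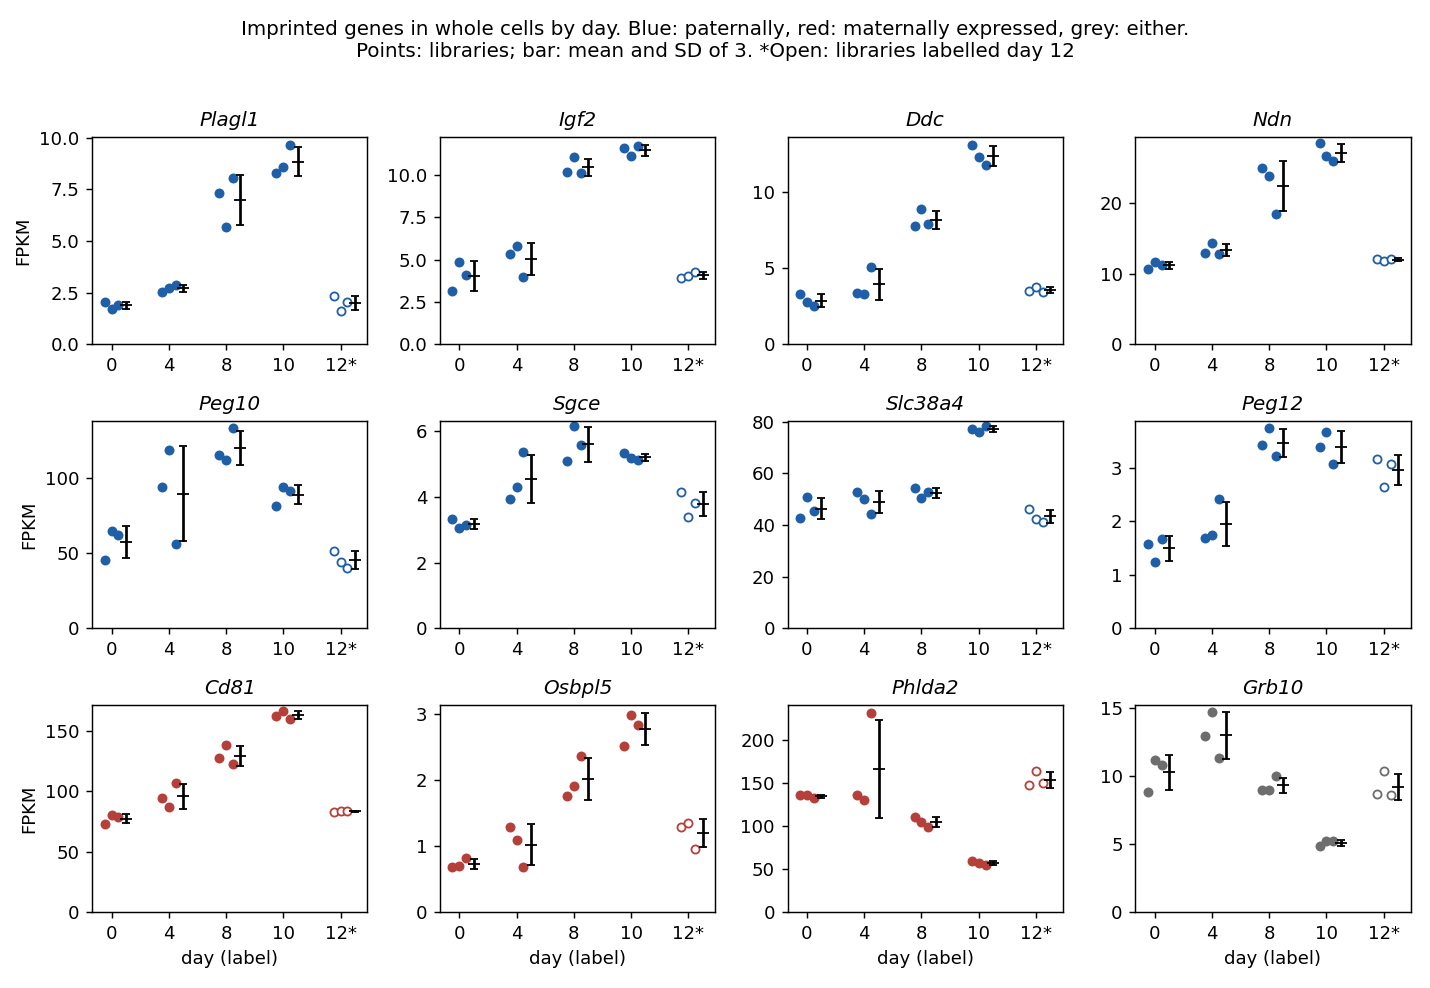
Level of 12 imprinted genes in whole cells (y axis, FPKM; x axis, labelled day; points, 3 libraries a day; bar, mean and SD). Plagl1, Igf2, Ddc and Ndn are higher at days 8 and 10, Phlda2 and Grb10 are lowest at day 10, and the open points of the libraries labelled day 12 lie near day 0 for most of them but not for Peg12.

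**Figure D2:**
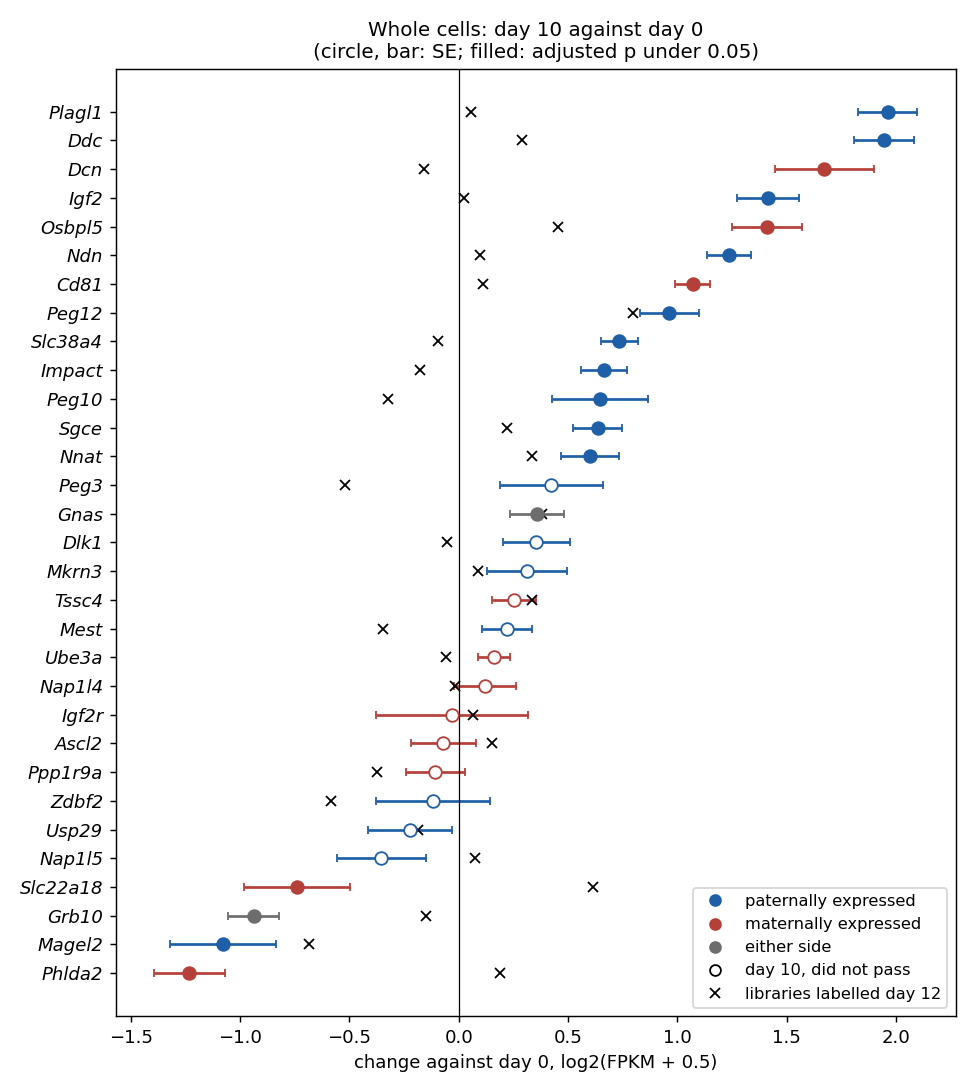
Difference from day 0 on the log2(FPKM + 0.5) scale (x axis) for the 31 tested imprinted genes (y axis), with circles and SE bars for day 10, filled where adjusted p was under 0.05, and crosses for the libraries labelled day 12. The circles run from -1.23 (Phlda2) to 1.96 (Plagl1).

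At day 4, with Dicer1 at 1.41 ± 0.462 FPKM, 2 imprinted genes passed, both higher, against 4.88% of all genes higher and 1.82% lower. At an unadjusted p under 0.05 they were 12 higher and 0 lower, and no share of all genes at that threshold is given here. The called genes were Sgce, 0.45 ± 0.11 (SE, adjusted p = 0.0291), and Cd81, 0.30 ± 0.08 (SE, adjusted p = 0.0372), at 94.2, 86.6 and 107 FPKM. Each day 4 library of both genes lies above day 0. Neither call held in every alternative: Sgce was lost without each day 0 replicate in turn (0.0573 to 0.111), and Cd81 without each of these (0.073 to 0.15) or without day 4 replicate 1 (0.0728). Plagl1 was at 2.52, 2.71 and 2.88 FPKM and Ndn at 13.01, 14.3 and 12.8, above day 0 in all 3 libraries but not past the threshold (adjusted p = 0.0913 and 0.204). Whole cell day 4 replicate 3 differed from its group in several members: Peg10 was 94.2, 119 and 55.8 FPKM, Igf2r 7.52, 9.31 and 2.54 and Zdbf2 9.07, 10.97 and 4.37. Without it 7 imprinted genes passed, with the share of all genes in that setting not given here. From day 4 to day 10, a comparison of libraries that all have low Dicer1, 11 imprinted genes were higher and 5 lower, against 23.3% and 14.2% of all genes. They included Plagl1 (1.54), Ddc (1.56), Igf2 (1.13), Ndn (0.99) and Slc38a4 (0.66) among those higher, and Phlda2 (-1.48) and Grb10 (-1.26) among those lower. Of these 16 calls, 12 held in every alternative, these 7 among them. Slc22a18 was lost without day 10 replicate 2 (0.0509), Ascl2 without day 4 replicate 2 or day 10 replicate 1 or 2 (0.0777 to 0.102), and Magel2 without day 4 replicate 1 or 2 or day 10 replicate 3 (0.06 to 0.126).

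In the libraries labelled day 12 of whole cells, in which Dicer1 was near its day 0 level, 2 imprinted genes differed from day 0, both higher, against 10.2% of all genes higher and 3.34% lower. Peg12 was at 3.17, 2.65 and 3.08 FPKM, above all day 0 libraries, a difference of 0.80 ± 0.13 (SE, adjusted p = 0.00152). Tssc4 was at 9.87, 10.9 and 10.97 FPKM against 9.32, 7.10 and 8.52, 0.33 ± 0.10 (SE, adjusted p = 0.0406), and lost its call without any 1 of its 6 libraries but day 0 replicate 1 (0.0519 to 0.191). At an unadjusted p under 0.05 the counts were 6 higher and 5 lower, again without a share of all genes. Plagl1 held 2.33, 1.64 and 2.05 FPKM in these libraries, Igf2 3.90, 4.02 and 4.26 and Phlda2 147, 164 and 150.1. Set against day 10, 3 imprinted genes were higher in these libraries and 15 lower, against 20.6% and 25.2% of all genes. All 11 called paternally expressed genes were lower, led by Plagl1 (-1.91), Ddc (-1.66), Igf2 (-1.39) and Ndn (-1.14), and the 3 higher were Phlda2 (1.42), Slc22a18 (1.35) and Grb10 (0.79). Peg3 was among these 11, at 22.9, 19.9 and 20.6 FPKM against 36.96, 42.9 and 43.4 at day 10, -0.94 ± 0.24 (SE, adjusted p = 0.00556). Ube3a lost its call without any 1 day 10 library or replicate 1 or 3 of those labelled day 12 (0.056 to 0.0945), and Dlk1 without day 10 replicate 1 or 2 or replicate 2 or 3 of those labelled day 12 (0.0562 to 0.195).

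The fractions are separate libraries, in which the nucleus and the cytoplasm at day 12 were each compared with day 0. In the cytoplasm 7 of 29 tested imprinted genes were higher at day 12 and 4 lower, against 16% and 16.6% of 17124 genes. In the nucleus 8 were higher and 6 lower, against 15.1% and 21.6%. The paternally expressed genes had a median log2 difference of 0.75 in the cytoplasm and 0.67 in the nucleus, against -0.01 and -0.10 over all genes, and 6 of 16 were called higher in each. The maternally expressed genes had medians of 0.12 and -0.01. Without the 2 nuclear libraries that stood apart, an alternative chosen after seeing the data, 21 of the imprinted genes passed in the cytoplasm and 21 in the nucleus. No share of all genes is given here for that setting, so these counts are not read as a trait of imprinted genes.

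Plagl1 showed the largest rise of the 29 tested genes in both fractions on the log2(FPKM + 0.5) scale. It held 3.82, 3.61 and 4.19 FPKM in the cytoplasm at day 0 and 29.4, 27.8 and 28.03 at day 12, and 4.61, 5.43 and 2.68 and 33.3, 23.4 and 23.7 in the nucleus. No day 12 library overlaps day 0 in either fraction, and the differences were 2.73 ± 0.21 (SE, adjusted p = 9.71e-06) and 2.55 ± 0.21 (SE, adjusted p = 2.10e-05). Ddc rose in the cytoplasm from 3.35, 3.50 and 4.09 to 11.3, 10.7 and 11.2 FPKM, 1.48 ± 0.28 (SE, adjusted p = 0.00219), and in the nucleus from 3.04, 2.96 and 4.21 to 6.04, 14.5 and 14.5, 1.56 ± 0.28 (SE, adjusted p = 0.00175). Nucleus day 12 replicate 1 was the low Ddc library. Ndn rose in both, from 8.82, 8.97 and 9.60 to 20.5, 18.7 and 17.8 FPKM in the cytoplasm and from 5.66, 5.98 and 7.29 to 13.1, 15.6 and 14.6 in the nucleus, 1.02 ± 0.11 (SE, adjusted p = 9.63e-05) and 1.14 ± 0.11 (SE, adjusted p = 6.21e-05). Slc38a4 went from 62.1, 65.6 and 66.6 to 104, 108 and 96.4 FPKM in the cytoplasm, 0.66 ± 0.13 (SE, adjusted p = 0.00248), and in the nucleus from 57.8, 59.2 and 50.03 to 108, 80.7 and 83.9, 0.69 ± 0.13 (SE, adjusted p = 0.00198). For these 4 genes every day 12 library lies above every day 0 library of its fraction.

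Phlda2 fell furthest on the same scale, while by the ratio of mean nuclear FPKM Slc22a18 fell further, to 0.209 of day 0 against 0.235. Its cytoplasmic level went from 111, 98.8 and 96.4 FPKM at day 0 to 24.3, 17.8 and 24.8 at day 12 and its nuclear level from 189, 144 and 147 to 16.3, 52.2 and 44.2, -2.18 ± 0.35 (SE, adjusted p = 8.59e-04) and -2.22 ± 0.35 (SE, adjusted p = 8.48e-04). Slc22a18 fell from 5.29, 3.73 and 4.13 to 1.02, 1.06 and 1.00 FPKM in the cytoplasm and from 6.17, 4.19 and 13.8 to 1.36, 1.63 and 2.08 in the nucleus, -1.66 ± 0.33 (SE, adjusted p = 0.00292) and -1.82 ± 0.33 (SE, adjusted p = 0.00188). Grb10 fell in both too, from 8.96, 10.02 and 8.14 to 3.31, 3.12 and 3.61 FPKM and from 4.90, 4.32 and 3.74 to 2.41, 1.93 and 2.43, -1.31 ± 0.13 (SE, adjusted p = 5.20e-05) and -0.80 ± 0.13 (SE, adjusted p = 0.00114). For these 3 growth-restraining and transporter genes every day 12 library lies below every day 0 library of its fraction. Cd81 rose from 88.2, 80.5 and 79.3 to 169, 168 and 173 FPKM in the cytoplasm, 1.04 ± 0.15 (SE, adjusted p = 4.33e-04). Its nuclear call, 0.43 ± 0.15 (SE, adjusted p = 0.0419), ended without nucleus day 0 replicate 1 (0.113), day 0 replicate 2 (0.125) or any 1 day 12 replicate (0.055 to 0.0955).

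Several fraction calls rested on a few libraries. Igf2 was 7.70, 6.93 and 6.68 FPKM in the cytoplasm at day 0 and 17.9, 17.3 and 19.5 at day 12, with no overlap, and 29.1, 25.8 and 19.3 and 15.8, 63.7 and 60.8 in the nucleus, where replicate 1 of day 12 lies below all of day 0. It passed in the cytoplasm, 1.303 ± 0.42 (SE, adjusted p = 0.0346), but not in the nucleus, 0.69 ± 0.42 (SE, adjusted p = 0.221). Without nucleus day 12 replicate 1 the nuclear difference passed (adjusted p = 0.000213), and the cytoplasmic call ended without any 1 of its 6 libraries (0.0724 to 0.094). Sgce in the cytoplasm, from 2.97, 3.13 and 2.13 to 5.08, 4.37 and 4.17 FPKM, 0.65 ± 0.21 (SE, adjusted p = 0.0389), was lost the same way (0.0546 to 0.148). In the nucleus Sgce was 11.9, 10.96 and 14.5 FPKM at day 0 and 5.80, 9.24 and 10.9 at day 12, lower in every library but not past the threshold, -0.54 ± 0.21 (SE, adjusted p = 0.071). Usp29, a ubiquitin protease gene, fell in the cytoplasm from 1.28 ± 0.290 to 0.490 ± 0.168 FPKM, -0.85 ± 0.25 (SE, adjusted p = 0.023), a call lost without replicates 1 or 3 of day 0 or replicates 1 or 2 of day 12 (0.0511 to 0.0925). In the cytoplasm, the sum of 11 endoderm markers was 17.4 to 20.1 FPKM at day 0 and 28.3 to 30.1 at day 12. Ttr was at 0 there. In the nucleus the sum was 62.3 to 104 and 167 to 209. Of 6 tested endoderm markers, 3 were higher and 1 lower in the cytoplasm, against 16% and 16.6% of all genes. In the nucleus 3 were higher and 2 lower, against 15.1% and 21.6%. The part of this sum in the Igf2, Ddc and Dlk1 values was not tested.

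In the nucleus alone, Peg3 passed at 56.9, 71.7 and 18.5 FPKM at day 0 and 124, 79.4 and 91.7 at day 12, 1.18 ± 0.39 (SE, adjusted p = 0.0362), a call lost without nucleus day 12 replicate 1 (0.1) or replicate 3 (0.0729). Day 0 replicate 3 is the low library, and without both libraries that stood apart the difference was 0.42 (adjusted p = 0.00925). Its cytoplasmic level was 36.99, 36.3 and 38.2 FPKM at day 0 and 77.6, 71.2 and 76.1 at day 12, without overlap, 1.00 ± 0.39 (SE, adjusted p = 0.0728). Igf2r was 17.2, 20.3 and 11.2 FPKM in the nucleus at day 0 and 23.96, 24.2 and 28.7 at day 12, 0.68 ± 0.18 (SE, adjusted p = 0.0133), lost without day 12 replicate 3 (0.0515). Dlk1 was 1.69, 1.62 and 1.08 and 1.82, 4.00 and 3.45 FPKM, 0.83 ± 0.23 (SE, adjusted p = 0.0165), lost without day 12 replicate 2 (0.0607) or 3 (0.061). Nnat fell in the nucleus, 57.1, 46.8 and 26.4 to 29.1, 16.9 and 18.2 FPKM, -0.97 ± 0.26 (SE, adjusted p = 0.0149), and overlapped between days, the call lost without day 0 replicate 1 (0.0524) or day 12 replicates 2 (0.0535) or 3 (0.0531). Gnas fell from 22.7, 19.3 and 21.2 to 12.2, 15.2 and 14.2 FPKM without overlap, -0.59 ± 0.10 (SE, adjusted p = 0.00159), and Mkrn3 from 2.36, 3.43 and 2.70 to 2.14, 1.32 and 1.94, -0.54 ± 0.19 (SE, adjusted p = 0.0429), lost without day 0 replicate 2 (0.125) or 3 (0.0547) or day 12 replicate 2 (0.145) or 3 (0.0684). Peg10 and Mest did not pass in either fraction, though their cytoplasmic libraries were apart: Peg10 was 54.9, 55.4 and 56.7 FPKM at day 0 and 121, 116 and 124 at day 12, and Mest 26.2, 32.2 and 30.6 and 54.1, 55.3 and 52.8. In a fit of the cytoplasmic libraries alone they passed (adjusted p = 2.87e-06 and 8.28e-05), and 19 of the imprinted genes did in place of 11. The share of all genes called in that fit is not given here. The SE of the Mest difference was 0.08 in that fit and 0.38 in the fit with the nuclear libraries.

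**Figure D3:**
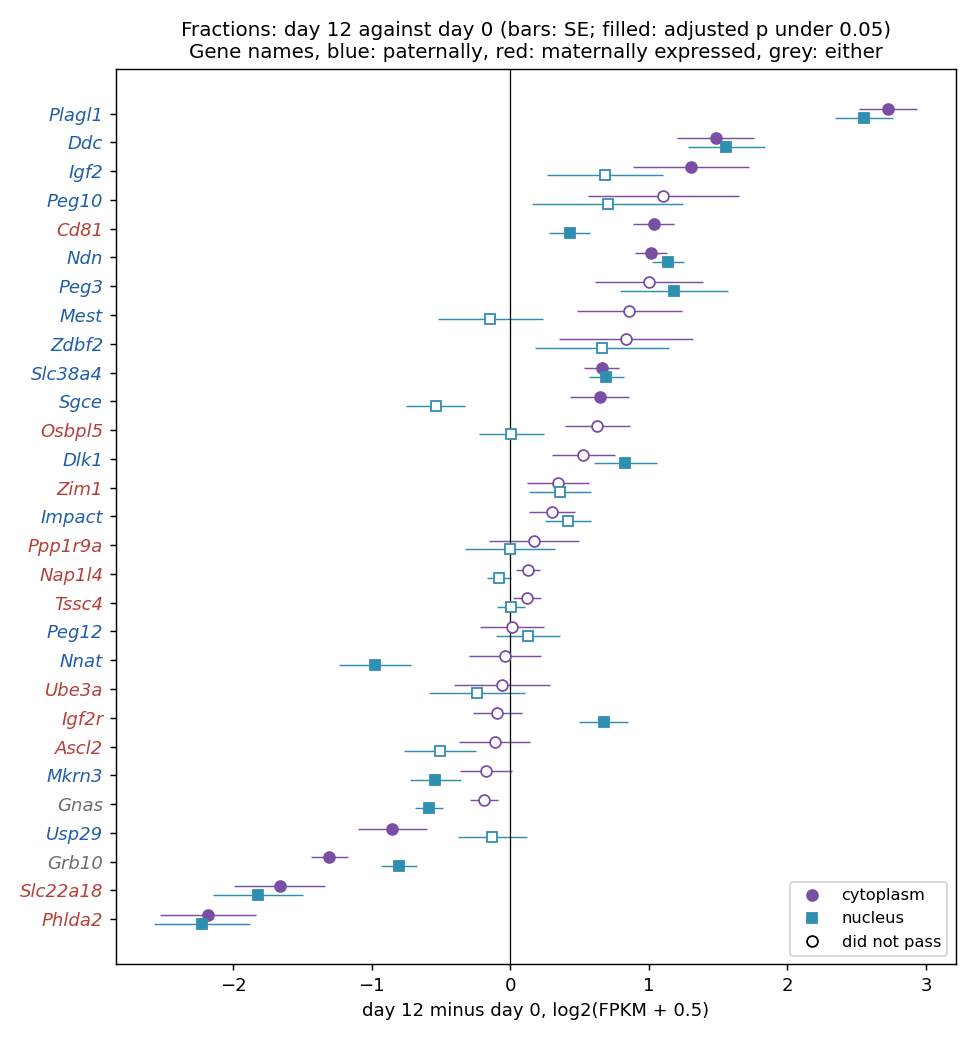
Difference of day 12 from day 0 on the log2(FPKM + 0.5) scale (x axis) for the 29 imprinted genes tested in the fractions (y axis), in the cytoplasm (circles) and the nucleus (squares), with SE bars; filled symbols had an adjusted p under 0.05. Plagl1, Ddc and Ndn lie to the right and Phlda2, Slc22a18 and Grb10 to the left in both fractions.

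Since FPKM is scaled to each library, nuclear and cytoplasmic values are shares of the RNA of their own fraction and give no amounts per cell. At day 0, 7 imprinted genes had a higher level in the nucleus than in the cytoplasm and 4 a lower one, against 25.3% and 16.4% of all genes. At day 12 the counts were 4 and 5, against 18.4% and 15.7%. Ppp1r9a stood furthest to the nuclear side, with 10.1, 12.04 and 3.81 FPKM in the nucleus and 0.574, 0.416 and 0.525 in the cytoplasm at day 0, and 9.68, 6.53 and 7.45 and 0.633, 0.635 and 0.624 at day 12. The differences were 3.05 ± 0.32 (SE, adjusted p = 5.39e-05) and 2.87 ± 0.32 (SE, adjusted p = 1.31e-04), with no overlap on either day. Sgce was 11.9, 10.96 and 14.5 FPKM in the nucleus and 2.97, 3.13 and 2.13 in the cytoplasm at day 0, 2.00 ± 0.21 (SE, adjusted p = 5.41e-05), and at day 12 the difference was 0.82 ± 0.21 (SE, adjusted p = 0.0131), a call lost without nucleus day 12 replicate 3 (0.0536). Igf2 was on the nuclear side at day 0, 1.71 ± 0.42 (SE, adjusted p = 0.00769), as was Osbpl5, 3.50, 3.31 and 1.57 against 1.05, 1.08 and 0.837 FPKM, 1.09 ± 0.24 (SE, adjusted p = 0.00394). Igf2r was on the nuclear side at day 12, 1.34 ± 0.18 (SE, adjusted p = 3.02e-04), and at day 0, 0.57 (adjusted p = 0.0244), a call lost without nucleus day 0 replicate 1 or 2 or cytoplasm day 0 replicate 2 or 3 (0.0639 to 0.0816). Its antisense partner Airn was 1.44 ± 0.365 FPKM in the nucleus and 0.151 ± 0.0488 in the cytoplasm at day 0, and its part in the Igf2r value was not tested.

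Grb10 and Nap1l4 were on the cytoplasmic side on both days. Grb10 had differences of -0.99 ± 0.13 (SE, adjusted p = 2.20e-04) at day 0 and -0.48 ± 0.13 (SE, adjusted p = 0.0163) at day 12, the second lost without nucleus day 12 replicate 2 (0.0625) or cytoplasm day 12 replicate 3 (0.0649). Nap1l4 held 38.5, 41.7 and 41.2 FPKM in the nucleus and 57.1, 56.6 and 57.2 in the cytoplasm at day 0, -0.49 ± 0.09 (SE, adjusted p = 0.00121), and -0.70 ± 0.09 (SE, adjusted p = 2.02e-04) at day 12. Ndn was lower in the nucleus at day 0, -0.51 ± 0.11 (SE, adjusted p = 0.0048), and Gnas at day 12, -0.65 ± 0.10 (SE, adjusted p = 8.02e-04). The other calls were Cd81 (0.55), Dlk1 (0.73) and Usp29 (-0.75) at day 0, and Dlk1 (1.03), Ndn (-0.38) and Mest (-1.17) at day 12. At day 0 the Dlk1 call was lost without nucleus replicate 1 or 2 or any cytoplasm replicate (0.0532 to 0.0792), and that of Usp29 without nucleus replicate 1 or 2 or cytoplasm replicate 1 or 3 (0.0704 to 0.118). At day 12 the Ndn call was lost without nucleus replicate 1 or 3 or cytoplasm replicate 1 or 2 (0.0522 to 0.0945), and that of Mest without nucleus replicate 2 or 3 or any cytoplasm replicate (0.0792 to 0.115). Of the 11 calls at day 0 and the 9 at day 12, 7 and 5 held in every alternative. The change of the nucleus to cytoplasm ratio from day 0 to day 12 passed for 0 of 29 imprinted genes in limma, against 1.33% of all genes, with 2 higher and 4 lower at an unadjusted p under 0.05. Without the 2 nuclear libraries that stood apart, 16 passed, with the share of all genes in that setting not given here. Under that setting Mest and Peg10 were among them, with ratio changes of -1.85 (adjusted p = 1.44e-05) and -1.42 (1.38e-05), where with all libraries they were -1.003 and -0.40 (adjusted p = 0.385 and 0.851).

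**Figure D4:**
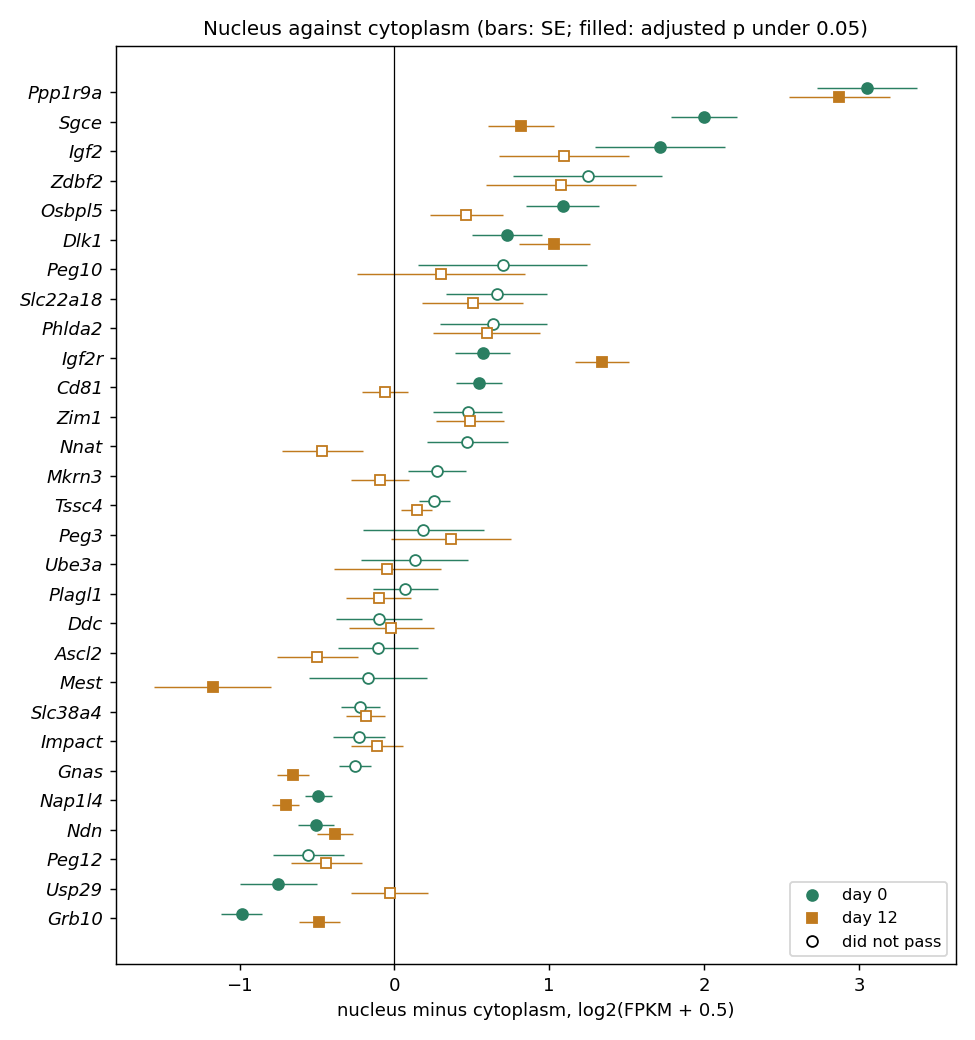
Nucleus minus cytoplasm on the log2(FPKM + 0.5) scale (x axis) for the 29 imprinted genes (y axis) at day 0 (circles) and day 12 (squares), with SE bars; filled symbols had an adjusted p under 0.05. Ppp1r9a and Sgce lie to the nuclear side, and Grb10 and Nap1l4 to the cytoplasmic side, on both days.

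Genes that set and keep imprints were measured beside these. Of 18, 0 were higher and 7 lower in whole cells at day 10, against 27.7% and 16% of all genes, with 1 higher and 7 lower at an unadjusted p under 0.05. The maternal factor gene Dppa3, whose protein protects imprints in the zygote, went from 94.5, 86.05 and 95.7 FPKM at day 0 to 18.7, 19.1 and 20.5 at day 10, -2.21 ± 0.16 (SE, adjusted p = 2.34e-07). The de novo methyltransferase gene Dnmt3b went from 111, 149 and 142 to 44.3, 46.03 and 45.4 FPKM, -1.54 ± 0.15 (SE, adjusted p = 3.32e-06), and its cofactor gene Dnmt3l from 132, 131 and 138 to 75.2, 79.6 and 72.2, -0.82 ± 0.06 (SE, adjusted p = 5.68e-07). Day 10 lies below day 0 in all libraries for these 3. The imprint reader gene Zfp57, named here after its values were seen, was 54.6 ± 7.75 FPKM at day 0 and 63.3 ± 6.27 at day 10, 0.22 ± 0.10 (SE, adjusted p = 0.112). In the cytoplasm 2 of the 18 were higher at day 12 and 4 lower, against 16% and 16.6% of all genes, and in the nucleus 2 were higher and 3 lower, against 15.1% and 21.6%, with Dppa3 at -3.51 and -1.99 (adjusted p = 9.99e-04 and 0.0204) and Dnmt3l at -1.13 and -1.04 (1.29e-05 and 3.21e-05). DNA methylation itself was not measured.

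Of 11 tested genes of IGF signalling, 4 were higher and 1 lower at day 10 in whole cells, against 27.7% and 16% of all genes, with 5 higher and 3 lower at an unadjusted p under 0.05. The receptor gene Igf1r (0.66), its substrates Irs1 and Irs2 (0.44 and 1.29) and the binding protein gene Igfbp3 (0.58) were higher, and the mRNA-binding protein gene Igf2bp2 (-0.40) was lower. In the nucleus at day 12, 0 were higher and 5 lower, against 15.1% and 21.6% of all genes, led by the binding protein genes Igfbp5 (-1.91) and Igfbp4 (-1.53), and in the cytoplasm 0 were higher and 3 lower, against 16% and 16.6%, Igfbp2 (-1.14), Igf2bp2 (-0.68) and Igf2bp3 (-0.62). At an unadjusted p under 0.05 the counts were 1 and 5 in the nucleus and 0 and 3 in the cytoplasm.

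Of 19 tested imprinted coding genes outside the set, 7 were higher and 4 lower at day 10, against 27.7% and 16% of all genes. The paraoxonase gene Pon2, a neighbour of Ppp1r9a and Asb4, rose in whole cells, 1.37 ± 0.14 (SE, adjusted p = 7.30e-06), in the nucleus, 1.37 ± 0.18 (SE, adjusted p = 3.36e-04), and in the cytoplasm, 2.05 ± 0.18 (SE, adjusted p = 2.26e-05). Zrsr1, a splicing factor retrogene inside Commd1, rose by 0.92 ± 0.08 (SE, adjusted p = 8.98e-07), while Commd1 was lower (-0.39, adjusted p = 0.0302). The cell cycle inhibitor gene Cdkn1c of the Kcnq1 domain was 9.80, 10.2 and 9.46 FPKM at day 0, 21.4, 26.03 and 22.2 at day 8 and 15.6, 12.1 and 12.96 at day 10, 1.20 ± 0.17 (SE, adjusted p = 1.60e-04) at day 8 and 0.44 ± 0.17 (SE, adjusted p = 0.0514) at day 10. The noncoding RNA H19, which shares an imprinting control region with Igf2 and carries miR-675, was 53.4, 71.2 and 70.9 FPKM at day 0 and 102, 96.8 and 99.8 at day 10, 0.62 ± 0.13 (SE, adjusted p = 0.00161). In the cytoplasm it went from 62.7, 48.97 and 54.5 to 174, 180.0 and 209.9 FPKM, 1.76 ± 0.32 (SE, adjusted p = 0.00194), and Igf2 rose there as well. Meg3, the maternally expressed noncoding RNA next to Dlk1, was 31.4 ± 7.77 FPKM in the nucleus at day 0 and 20.03 ± 2.24 at day 12, -0.61 ± 0.16 (SE, adjusted p = 0.0128).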

How the data were processed

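RNA-seq of polyadenylated RNA was measured in 27 libraries, 9 groups of 3, with paired ends and a directional protocol, per the labels' protocols. The deposited values are FPKM for each gene, and Cufflinks 1.3.0, TopHat2 2.0.9 and mm9 appear among the tools and builds of the submitters' processing notes, with no role given; the strand setting is not given in the sources used here. The most frequent ratio of low FPKM values between libraries gave their relative depth. With replicate 1 of whole cell day 4 set to 1, it was between 0.719 and 3.63. The whole cell libraries of day 0 were at 3.07 to 3.63 and those of all later days at 0.719 to 1.12. Every whole cell comparison with day 0 thus sets deeper against shallower libraries, and the part of depth in low genes was not tested. The number of reads is unknown. The sum of FPKM in a library was 275545 to 459892. Coordinates and 3′ UTRs are from GENCODE M21 (GRCm38), joined by gene identifier.

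Log2(FPKM + 0.5) was fitted with limma 3.58.1 in R 4.3.3 (lmFit, eBayes with trend), in 15 whole cell libraries and, apart from these, in 12 fraction libraries. Genes with a mean of 0.5 FPKM or more in 1 group were tested, 15991 and 17124 of 38123. Adjusted p is Benjamini-Hochberg over all of them, with a threshold of 0.05; differences on this scale are smaller than the true ratio for low genes. The procedure was run on simulated data in which each gene had the same spread in every group, and no outcome is given here. Such data cannot show the effect of unequal spread between nuclear and cytoplasmic libraries. Counts at an unadjusted p under 0.05 are of the listed genes alone, and no share of all genes is given for them. The replicates are labelled as biological, but separate cultures are not stated, so a p-value rests on library-to-library spread, which may be technical. The imprinted genes and the lists beside them were chosen with earlier results of these data known. Library values are given for imprinted genes that passed against day 0 and reached 2 FPKM in 1 group. Genes of other lists are named where they passed and reached 2 FPKM, or are the noncoding RNA of the same locus.

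Alternatives were a pseudocount of 0.1 or 1, a filter at 1 FPKM or none, median-of-ratios or quantile scaling, protein-coding genes alone, only the groups compared, the replicate number as a block, and leaving out each library. No clear pairing by replicate number was seen, and the main fit used none.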

Additional observations from a re-analysis of the deposited data

How the results depend on the processing

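Of 118 calls of an imprinted gene in a comparison, 82 held in every alternative, 36 were lost in 1 or more and 0 turned direction while called. The counts of imprinted genes below stand without the share of all genes called in the same setting. At day 4 the count of 2 was 1 with no filter, with protein-coding genes alone or without the libraries labelled day 12, 0 with median-of-ratios scaling, quantile normalization or only the groups compared, and 0 to 7 without 1 library. For the libraries labelled day 12 against day 0, the count of 2 was 1 with no filter, 4 with quantile normalization, 6 with only the groups compared and 1 to 3 without 1 library. With only the groups compared it was 6 in the nucleus and 19 in the cytoplasm; without 1 library it was 9 to 15 and 8 to 9. Leaving out 1 library gave 14 to 16 at day 8 and 15 to 18 at day 10, 8 to 16 and 6 to 12 for nucleus against cytoplasm at days 0 and 12, and 0 to 4 for the ratio. Without the 2 nuclear libraries that stood apart, an alternative chosen after seeing the data, the counts were 21 in each fraction over time, 25 and 21 for nucleus against cytoplasm at days 0 and 12, and 16 for the ratio. The differences that then turned were Osbpl5 (-0.44) and Peg10 (-0.31) in the nucleus over time, Mest at day 0 (0.29) and Ddc at day 12 (0.38) for nucleus against cytoplasm, and Peg3 for the ratio (-0.59); the cause was not tested.

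With the replicate number as a block the counts were 0 at day 4, 17 at day 8, 18 at day 10, 12 in the nucleus and 10 in the cytoplasm. Same-numbered libraries deviated together at r = -0.36 to 0.27, with no comparison in which all 3 numbers passed 0.1. Every library fitted its own number best at day 8 alone. With 3 libraries a group, no clear pairing was seen, and whether same-numbered libraries share a culture or batch cannot be told.

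Scaling moved the balance of calls over all genes: the share that was higher fell from 67.7% to 56.3% (median-of-ratios) and 45.9% (quantile) at day 8 and from 63.4% to 53.3% and 44.4% at day 10. Against day 0 it fell from 72.8% to 56.5% (quantile) at day 4 and from 75.4% to 56.2% and 44.9% in the libraries labelled day 12, and from day 4 to 10 from 62.1% to 51.7% and 48.8%. For nucleus against cytoplasm it fell from 60.7% to 39.4% at day 0 and 54.1% to 39.6% at day 12 (quantile), and for the ratio it rose from 20.7% to 31.6% and 40.9%. Quantile normalization moved the median difference of all genes from 0.06 to -0.07 at day 8, 0.09 to -0.08 at day 10, 0.06 to -0.06 in the libraries labelled day 12 and 0.12 to -0.10 for nucleus against cytoplasm at day 0. Of the imprinted genes called at day 10, 17 were called under each of these scalings. The number of reads behind an FPKM is unknown, so counting error could not be set beside genes near 0.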
